A study of Mus musculus with 24 samples.

Results

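The type I interferon and nucleic acid sensing genes are a set of 38 genes, chosen by name. They were followed in sorted small intestinal epithelium through the open chromatin peaks assigned to them. A peak belonged to the set where the deposited annotation gives one of the 38 as its nearest gene at 50000 bp or less from the annotated transcription start site (TSS). This rule found 182 of the 150646 consensus peaks, 44 of them at promoters (within 1000 bp of the TSS) and 138 distal. Counts were high enough to test in 161, namely 43 promoter and 118 distal peaks. Each of the 38 genes had at least 1 tested peak, and 31 had a promoter peak. Oas2, Oas3, Oasl1, Irf3, Ifi27, Ifnar2 and Mavs had none under the rule.

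The measurement was ATAC-seq, in which the Tn5 transposase inserts adapters into open chromatin, and the value of a peak is the number of reads in it. The 6 libraries, 3 from aged and 3 from young C57BL/6JRj mice, came from freshly isolated cells that were positive for the epithelial surface protein EpCam and negative for the leukocyte protein CD45. No allele, transgene or treatment is named for either age. The labels give only Young and Aged; the design text of the series gives 2 to 3 and 20 to 22 months, in sentences on other assays. Whether the libraries are from separate mice is not stated outright, and p-values measure only their spread, which may be technical.

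Cells sense foreign or misplaced RNA through the helicases RIG-I (Ddx58), MDA5 (Ifih1) and LGP2 (Dhx58); the first pair signals through Mavs on mitochondria. DNA is sensed through cyclic dinucleotides that bind STING (Tmem173). Both routes activate the transcription factors Irf3 and Irf7, which induce interferons. Interferon then binds its receptor (Ifnar1 and Ifnar2), and the factor that contains Stat2 and Irf9 binds interferon-stimulated response elements in the promoters of antiviral genes. In the intestinal epithelium these genes defend against enteric viruses.

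The response element is a direct repeat, searched here as GAAA, any 2 bases and GAAA again, on both strands, with overlapping matches counted apart, in windows from 250 bases before to 50 bases after the RefSeq start (GRCm38.p6). RefSeq windows matched 29 of the 38 genes. The repeat was found in at least 1 window of 12 of them (41.4%), and in 12 of their 34 windows (35.3%), against 3.44% of the 32851 windows of all genes. The motif TTCNNNGAA, the form bound by STAT dimers, was found in 8 of the 34 windows (23.5%) against 8.3% of all windows, and a base could count for both motifs. Isg15 had 3 matches to the repeat, and Ifit1, Ifit3, Oas1a, Oas1g and Bst2 had 2 each. Stat2, Ddx58, Ifih1, Eif2ak2, Rsad2 and Oas3 had 1 each. A match is a description of the letters and not a measured binding site. The stretches before the RefSeq starts are shown from 5′ to 3′ on the gene's strand for 5 genes with the repeat and for 2 without it, Isg20 (before the second of its RefSeq starts) and Irf7, so that the letters stand beside the values of these promoters. Capitals mark the repeat, which reads as its reverse complement where it lies on the opposite strand. The stretches lie at chr4:156200819-156200968 (minus strand) for Isg15, chr19:34640739-34640888 (plus) for Ifit1, chr19:34583363-34583528 (plus) for Ifit3, chr5:120907526-120907675 (minus) for Oas1a, chr5:120887614-120887763 (minus) for Oas1g, chr7:78913615-78913764 (plus) for Isg20 and chr7:141266425-141266574 (minus) for Irf7.
Isg15: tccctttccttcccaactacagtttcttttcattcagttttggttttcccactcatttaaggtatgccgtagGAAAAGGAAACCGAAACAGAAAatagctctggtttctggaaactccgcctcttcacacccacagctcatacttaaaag
Ifit1: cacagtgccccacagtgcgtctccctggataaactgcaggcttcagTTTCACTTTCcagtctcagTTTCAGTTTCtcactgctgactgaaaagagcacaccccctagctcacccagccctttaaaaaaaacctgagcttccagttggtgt
Ifit3: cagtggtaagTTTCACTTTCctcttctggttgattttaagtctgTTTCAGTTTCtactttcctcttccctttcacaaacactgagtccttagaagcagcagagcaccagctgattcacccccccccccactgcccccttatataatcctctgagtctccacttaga
Oas1a: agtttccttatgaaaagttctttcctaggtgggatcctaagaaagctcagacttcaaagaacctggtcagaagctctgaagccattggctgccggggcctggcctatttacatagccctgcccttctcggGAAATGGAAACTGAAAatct
Oas1g: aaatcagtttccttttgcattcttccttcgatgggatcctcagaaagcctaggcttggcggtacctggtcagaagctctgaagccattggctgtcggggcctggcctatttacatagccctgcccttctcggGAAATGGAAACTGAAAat
Isg20: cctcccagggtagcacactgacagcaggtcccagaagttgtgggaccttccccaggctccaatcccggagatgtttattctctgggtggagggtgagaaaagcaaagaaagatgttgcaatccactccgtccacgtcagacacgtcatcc
Irf7: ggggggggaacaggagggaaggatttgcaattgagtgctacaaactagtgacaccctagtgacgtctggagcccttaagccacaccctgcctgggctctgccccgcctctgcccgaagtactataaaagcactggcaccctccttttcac

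The promoter windows of Oas1a and Oas1g, neighbouring paralogs on chromosome 5, were 85.3% identical (261 of 306 alignment columns), against a median of 46.4% over all 406 pairs of members. Reads that fit both copies could have been divided between them, so their values are uncertain to that extent.

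Accessibility of the set as a whole was nearly the same in each library. The 182 peaks held 0.132%, 0.132% and 0.140% of all counts in aged 1, 2 and 4 against 0.134%, 0.133% and 0.140% in young 1, 2 and 4. Total counts ranged from 6149680 in young 4, the shallowest library, to 23935291 in aged 2. The epithelial identity of the sort was visible at promoters: 12 of 14 epithelial marker genes had a promoter peak, and their depth-normalised read counts (CPM) summed to 346 to 377 in aged and 356 to 383 in young libraries. Of 19 leukocyte markers only Cd2, Coro1a and Rac2 had one, at a sum of 11.3 to 17.0 CPM in aged and 12.6 to 14.3 in young libraries. The defining leukocyte genes Ptprc and Cd3e had none, and neither did the epithelial genes Krt19 and Vil1. A gene whose annotated TSS lies far from its open promoter also counts as having none, as Mavs did. Markers were open at promoters for 2 of 6 fibroblast, 1 of 5 endothelial and 1 of 5 neural genes, and none of the markers' promoters was called in either direction. In bulk samples a different share of cells with an open site and a different degree of opening per cell cannot be told apart.

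Promoters of the set differed widely in accessibility per length. On the scale of CPM summed over promoter peaks, relative to all promoter counts and divided by the peaks' length in kb, the level averaged over all libraries had a median of 56.1 for the 31 genes, against 74.2 for all tested promoters. Among these 31, the receptor gene Ifnar1 was highest at 290.9 CPM per kb, the 97.3rd percentile of all promoters. The signal transducer Stat2 followed at 261.5. Mavs is not among the 31, since the peak over its RefSeq start was counted as distal. On the scale of single peaks that peak had 119.7 CPM per kb, above the 98.3 of the Ifnar1 promoter peak. The sensor Ifih1 stood at 159.7. The lowest value was 10.4, for Mx2. The order depends on the annotated TSS, since for Mx2, Irf9, Rsad2 and Samd9l another peak annotated as the gene's promoter lay farther than 1000 bp from it and was counted as distal. On the scale of single peaks, Mx2 had 45.2 CPM per kb in such a peak, 23164 bp upstream, and 3.48 in the intron peak that gave its promoter value. Irf9, the DNA-binding partner of Stat2, had 48.4 in such a peak, 1607 bp upstream, and 18.0 in the one counted as promoter. Among the further effectors Isg20 (145.0), Eif2ak2 (134.9), Cmpk2 (116.8), Bst2 (114.1) and Ifi35 (98.7) were above the overall median. Usp18 (128.7) and Oas1g (103.7) were above it too. Rsad2, Xaf1, Samd9l, Sp100, Rtp4 and Ifi44 were below it, as were all 3 IFIT promoters (23.9 to 40.5).

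**Figure D1:**
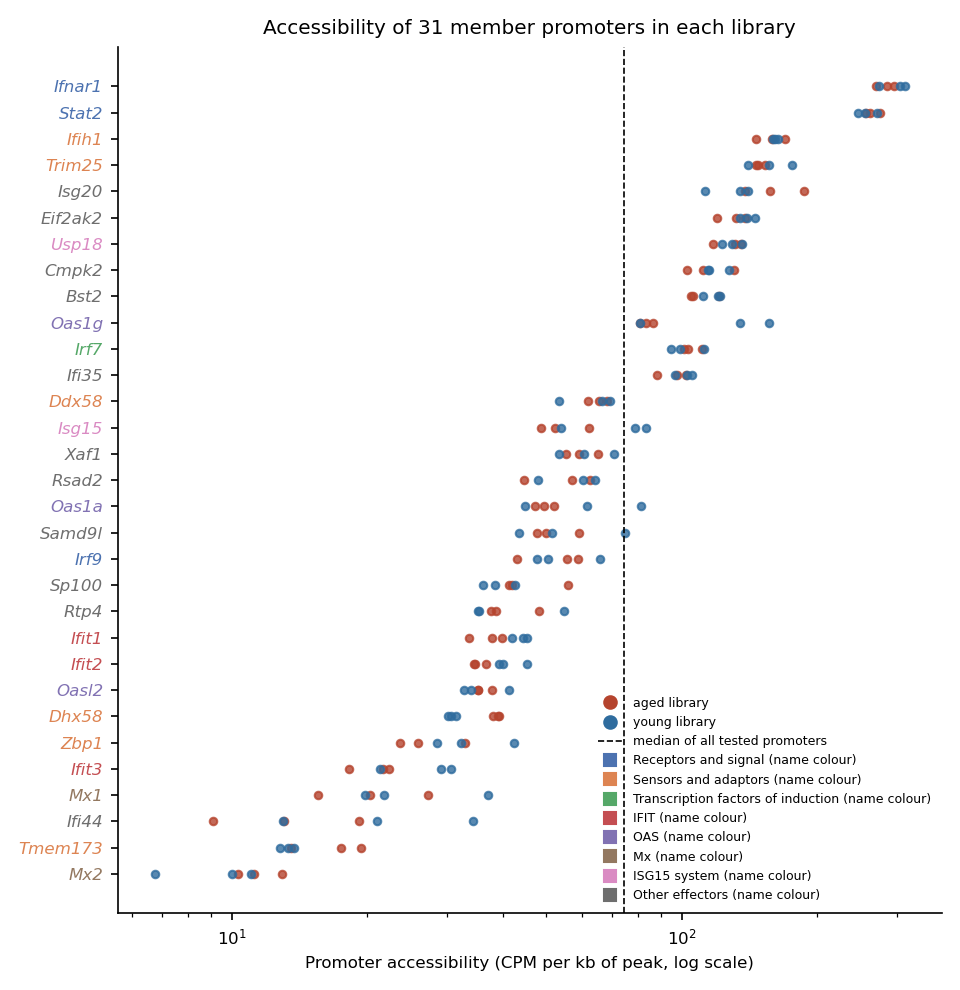
Promoter accessibility of the 31 genes with a promoter peak, as CPM per kb of peak on a log scale (horizontal axis), with 1 point per library (red aged, blue young) and gene names coloured by role. Ifnar1 (290.9 on average) and Stat2 (261.5) lie far above the dashed median of all tested promoters (74.2), the lowest value is that of Mx2 (10.4), which comes from an intron peak near its annotated TSS, and the colours mix at most genes.

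Between the ages, 2 of the 161 tested peaks differed at an adjusted p below 0.05, both higher in aged libraries: 1 promoter peak of Dhx58 and 1 intronic peak of Usp18. The background is that 1.6% of all 129588 tested peaks were called, 1.07% higher and 0.528% lower in aged libraries. For promoter peaks, 1 of 43 stands beside 1.44% of 18834 (0.579% higher, 0.865% lower), and for distal peaks 1 of 118 beside 1.59% of 92343 (1.15% higher, 0.442% lower). These shares are near the background and say nothing particular about the set. An unadjusted p below 0.05 was reached by 14 of the 161, against 11434 of all 129588. Of the 161 log2 fold changes (aged over young), 69 were above and 92 below 0, with a median of -0.03 beside -0.004 for all peaks. No overlap between aged and young values was seen in 24 of the 161 (12 higher and 12 lower in aged), which is 14.9% beside 13.9% of all peaks. Among promoter peaks it was 9 of 43 (6 higher and 3 lower), which is 20.9% beside 11.2% of all promoter peaks, and 8 of 43 had an unadjusted p below 0.05 beside 1281 of 18834.

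Dhx58 encodes LGP2, the helicase of the RIG-I family that lacks the signalling domain and tunes the other members. Its called peak lies at chr11:100703387-100703702 (GRCm38), 197 bp upstream of the annotated TSS in a stretch annotated as promoter. Normalised read counts there were 2.71, 2.63 and 2.84 CPM in aged 1, 2 and 4 against 1.42, 0.891 and 0.796 in young 1, 2 and 4. All 3 aged values lay above all 3 young values, and the aged values lay closer together. The log2 fold change was 1.30 (SE 0.28, n = 3 per age, adjusted p = 0.00555, edgeR's quasi-likelihood test). It is a weak peak: the raw counts were 44, 63 and 50 in aged against 31, 18 and 5 in young libraries, and 10.6% of tested promoter peaks were no more accessible per length.

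The peak kept its direction in all 15 alternative settings and was called in 13 of them, with adjusted p from 0.000186 to 0.141 by the tests run. It was not called without young 2 (1.13, adjusted p = 0.110, edgeR) nor after all libraries were thinned to the depth of young 4 (1.42, adjusted p = 0.141, edgeR). The other 3 tested peaks of Dhx58 had log2 fold changes from -0.14 to 0.29. The strongest of them, 959 bp upstream, averaged 7.09 ± 0.44 CPM in aged and 5.67 ± 0.65 in young libraries (SD, n = 3); its ages did not overlap, and it was not called (0.29, SE 0.16, adjusted p = 0.695, edgeR). A further peak inside the gene, 179 bp past the annotated TSS, was too low to test. By RefSeq coordinates the gene spans 100694884 to 100704271 on chromosome 11, and upstream peaks have the higher coordinates. The peak at 959 bp therefore covers the RefSeq start of the gene, and the called peak lies 569 bp past that start, inside the gene.

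Summed over the gene's 4 promoter peaks, Dhx58 had 42.9, 44.3 and 44.1 CPM (scaled to promoter counts) in aged 1, 2 and 4 against 34.1, 34.8 and 35.5 in young 1, 2 and 4. The ages did not overlap. The summed difference was 0.34 (SE 0.11, adjusted p = 0.217, edgeR) and was not called. With promoters taken as 500 bp instead of 1000 bp around the TSS, which leaves out the stronger peaks, the sum was called at 1.36 (SE 0.25, adjusted p = 0.00176, edgeR).

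Usp18 encodes a protease that removes Isg15 from proteins and also blocks signalling at the interferon receptor. Its called peak lies in intron 4 of 10, at chr6:121255756-121256241, 10092 bp past the annotated TSS. Accessibility there was 17.7, 15.3 and 14.9 CPM in aged 1, 2 and 4 against 11.8, 10.5 and 10.2 in young 1, 2 and 4. Every aged value was above every young value, and in both ages the library numbered 1 was highest. The log2 fold change was 0.54 (SE 0.13, n = 3 per age, adjusted p = 0.0237, edgeR's quasi-likelihood test). It was called in 12 of 15 alternatives, with the same sign in all 15 and adjusted p from 0.000442 to 0.221 by the tests run. The call was lost without aged 1 (0.46, adjusted p = 0.175, edgeR), without young 2 (0.51, adjusted p = 0.221, edgeR) and with DESeq2 (0.54, adjusted p = 0.0549).

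The promoter of Usp18 itself was not called. Its peak 56 bp upstream averaged 24.0 ± 0.77 CPM in aged and 24.4 ± 2.95 in young libraries (SD, n = 3), a log2 fold change of -0.03 (SE 0.12). The other 6 tested Usp18 peaks, this one included, ranged from -0.44 to 1.1, and none was called. A pair of weak intergenic peaks lay upstream. The one at 2927 bp had 1.11, 1.04 and 1.87 CPM in aged 1, 2 and 4 against 0.686, 0.792 and 0 in young 1, 2 and 4. Its ages did not overlap, and the 0 belongs to the shallowest library (1.1, SE 0.41, adjusted p = 0.295, edgeR). The one at 2633 bp had 3.08, 4.18 and 4.54 CPM in aged against 2.61, 3.07 and 3.18 in young libraries, with overlap (0.44, SE 0.21).

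**Figure D2:**
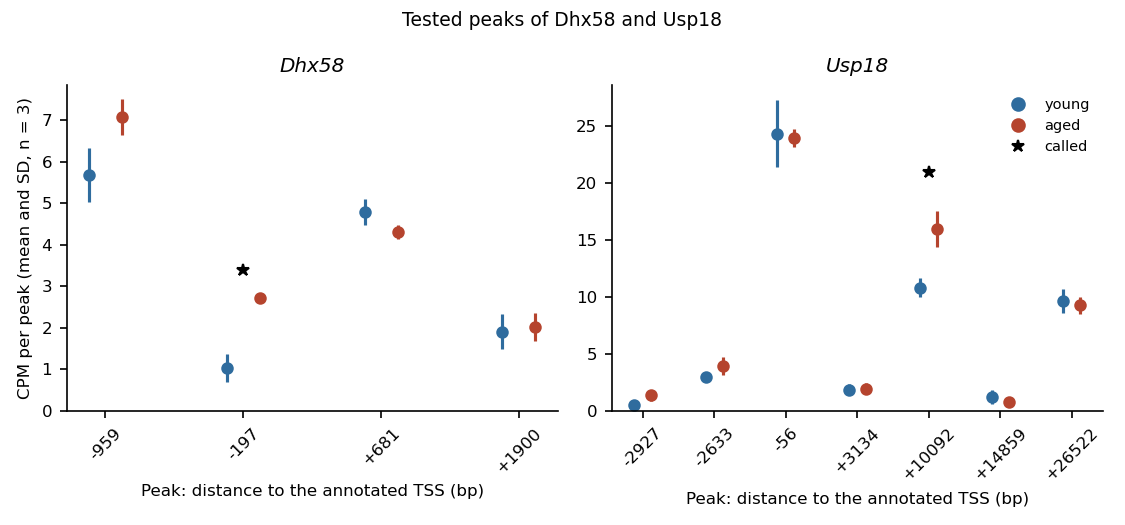
Mean accessibility (CPM per peak, vertical axis, with SD of 3 libraries) of each tested peak of Dhx58 and Usp18, ordered by distance to the annotated TSS (horizontal axis; red aged, blue young, star for a called peak). The starred peaks are the only called ones: at Dhx58 the peak at -197 bp stands at 2.73 against 1.04 CPM, and at Usp18 the intronic peak stands at 16.0 against 10.8 while the promoter peak at -56 bp stands at 24.0 against 24.4.

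Receptors and signal transducers showed no called peak. Ifnar1, the first receptor chain, had promoter values of 214.7, 207.7 and 196.5 CPM (scaled to promoter counts) in aged 1, 2 and 4 against 226.9, 199.5 and 222.0 in young 1, 2 and 4. The ages overlapped, and the difference was -0.06 (SE 0.06). Stat2 had 0.04 (SE 0.07) and Irf9 -0.01 (SE 0.18). The peak over the RefSeq start of Ifnar2, the second chain, annotated as exon 1 of 9, lies 14752 bp before the annotated TSS; it was counted as distal and had 0.05 (SE 0.14).

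Among the sensors and adaptors, 13 promoter peaks were tested: 5 log2 fold changes were above 0 and 8 below, and only Dhx58 was called. Zbp1 encodes a sensor of Z-form nucleic acids that triggers cell death. Its main promoter peak, 51 bp upstream, had 7.46, 7.77 and 8.75 CPM in aged 1, 2 and 4 against 9.43, 9.95 and 11.5 in young 1, 2 and 4. Every aged value was below every young value, yet the peak was not called (-0.34, SE 0.15, adjusted p = 0.460, edgeR). Tmem173, which encodes STING, had a weak peak 67 bp past its TSS with 1.48, 1.30 and 1.76 CPM in aged against 0.961, 0.842 and 0.478 in young libraries. The ages did not overlap (0.85, SE 0.33, adjusted p = 0.329, edgeR), while its second promoter peak had -0.13 (SE 0.29).

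Summed over both promoter peaks, Tmem173 had 6.98, 9.0 and 9.98 CPM in aged 1, 2 and 4 against 7.1, 6.86 and 6.59 in young 1, 2 and 4, with overlap (0.33, SE 0.24). Ifih1, the most accessible sensor promoter, had 127.0, 138.0 and 147.1 CPM in aged against 138.7, 140.0 and 141.9 in young libraries, and the aged values enclosed the young ones (-0.03, SE 0.07). Ddx58, whose product is RIG-I, had 0.08 (SE 0.10) over 3 peaks, and Trim25, a ubiquitin ligase that activates RIG-I, -0.11 (SE 0.08). Mavs is the adaptor both helicases need. The peak over its RefSeq start, counted as distal because it lies 7894 bp before the annotated TSS, had 62.6, 56.8 and 55.7 CPM in aged 1, 2 and 4 against 66.5, 60.7 and 53.8 in young 1, 2 and 4. The ages overlapped (-0.06, SE 0.11).

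Irf7, the factor that amplifies interferon production, had 104.5, 106.6 and 115.1 CPM (scaled to promoter counts) in aged 1, 2 and 4 against 98.1, 102.5 and 116.0 in young 1, 2 and 4. The ages overlapped at 0.07 (SE 0.08), a value whose sign turned after thinning (-0.009). Its pair of promoter peaks differed: the stronger, at 539 bp upstream, had -0.02 (SE 0.11). The weaker, 492 bp past the TSS, had 7.4, 8.11 and 8.23 CPM in aged against 6.68, 5.70 and 6.53 in young libraries, without overlap and without a call (0.34, SE 0.16, adjusted p = 0.529, edgeR). The promoter of Irf3, the other factor of induction, was assigned in the deposited annotation to the adjacent Bcl2l12 and had -0.12 (SE 0.12).

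The antiviral IFIT genes, whose products bind foreign RNA ends, lie in a cluster on chromosome 19. Ifit1 had 15, 16.9 and 17.7 CPM (scaled to promoter counts) in aged 1, 2 and 4 against 18.7, 20.1 and 19.8 in young 1, 2 and 4. The ages did not overlap (-0.23, SE 0.17). Ifit3 had 6.63, 8.13 and 7.88 CPM in aged against 10.6, 7.76 and 11.1 in young libraries, with young 2 inside the aged range (-0.34, SE 0.24). Ifit2 had -0.25 (SE 0.20) and no overlap between the ages. All 3 values were thus below 0, and none was called. The smallest adjusted p under any setting was 0.537 for Ifit1 and 0.551 for Ifit3 by the tests run. Lack of overlap is common at summed promoters, at 14% of all 13880. A distal peak 9715 bp upstream of Ifit3, annotated as the end of Ifit2, had 2.65, 2.55 and 3.18 CPM in aged 1, 2 and 4 against 3.71, 3.76 and 4.62 in young 1, 2 and 4. The aged values were all lower (-0.49, SE 0.21, adjusted p = 0.431, edgeR).

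The OAS genes encode oligoadenylate synthetases, which sense double-stranded RNA, or related proteins. At the Oas1g promoter peak, 31 bp upstream, accessibility was 6.22, 5.52 and 5.51 CPM in aged 1, 2 and 4 against 6.04, 9.11 and 10.0 in young 1, 2 and 4. Young 1 lay within the aged range while young 2 and 4 were higher. The difference was -0.50 (SE 0.18) and was not called (adjusted p = 0.237, edgeR). With the replicate number as a block it was called (-0.50, adjusted p = 0.0469, edgeR), as it was without young 1 (-0.72, adjusted p = 0.0275, edgeR) and after thinning (-0.87, adjusted p = 0.0412, edgeR).

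Oas1a repeated that pattern at its peak 43 bp upstream, with 6.47, 6.89 and 5.85 CPM in aged 1, 2 and 4 against 6.86, 8.42 and 10.8 in young 1, 2 and 4. Young 1 again lay among the aged values (-0.38, SE 0.17, adjusted p = 0.473, edgeR). The similarity of both promoters, given above, applies here too. A weak second Oas1a peak, 553 bp past the TSS, had 0.924, 0.836 and 1.25 CPM in aged against 0.458, 0.644 and 0.478 in young libraries, the opposite order without overlap (0.88, SE 0.40, adjusted p = 0.489, edgeR). Oasl2 had 0.04 (SE 0.13). Peaks annotated as the promoters of Oasl1, Oas2 and Oas3 were assigned to adjacent non-coding or unclassified genes and had -0.10 (SE 0.12), 0.15 (SE 0.37) and 0.06 (SE 0.16).

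The Mx genes encode antiviral GTPases in wild mice and are defective in many laboratory strains, C57BL/6 among them; the deposited annotation types Mx2 as a polymorphic pseudogene. Mx1 had 4.88, 6.38 and 8.58 CPM (scaled to promoter counts) in aged 1, 2 and 4 against 6.23, 6.86 and 11.7 in young 1, 2 and 4. The ages overlapped (-0.18, SE 0.28), and the sign turned without young 4 (0.02). Mx2 had 2.09, 2.63 and 2.28 CPM in aged against 1.37, 2.24 and 2.03 in young libraries, also with overlap (0.37, SE 0.41); these come from an intron peak 793 bp past the annotated TSS. The stronger peak annotated as its promoter, 23164 bp upstream and counted as distal, averaged 36.6 ± 3.23 CPM in aged and 36.5 ± 1.91 in young libraries (SD, n = 3), a difference of -0.003 (SE 0.11).

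Isg15 is the ubiquitin-like protein that Usp18 removes. Its promoter had 9.77, 12.5 and 10.5 CPM (scaled to promoter counts) in aged 1, 2 and 4 against 10.8, 15.8 and 16.7 in young 1, 2 and 4. Young 2 and 4 lay above all aged libraries, and young 1 lay among them (-0.34, SE 0.21, adjusted p = 0.741, edgeR's quasi-likelihood test). The Usp18 promoter had 65.4, 73.3 and 75.3 CPM in aged against 75.6, 68.5 and 72 in young libraries, with full overlap (-0.01, SE 0.09). Its sign turned without aged 1 (0.04) and without young 1 (0.04).

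Isg20 encodes an exonuclease that degrades single-stranded RNA. Among the 31 promoters it was the only one besides Dhx58 with a positive difference at an unadjusted p below 0.05. It had 101.5, 115.4 and 137.3 CPM (scaled to promoter counts) in aged 1, 2 and 4 against 82.7, 103.1 and 98.8 in young 1, 2 and 4. Aged 1 lay within the young range, and aged 2 and 4 above it. The value was 0.33 (SE 0.10, adjusted p = 0.120, edgeR) and became a call with the replicate block (0.29, adjusted p = 0.00862, edgeR) and without aged 1 (0.42, adjusted p = 0.0234, edgeR). As a single peak, 67 bp upstream and scaled with all peaks, it had 35.9, 38.6 and 44.5 CPM in aged against 30.4, 34.2 and 31.1 in young libraries, without overlap. It was called there only with the block (0.29, adjusted p = 0.0182, edgeR).

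None of the other effectors was called. Bst2, which tethers virions to the cell surface, had -0.08 (SE 0.09), and Eif2ak2, the kinase that halts translation on double-stranded RNA, -0.10 (SE 0.09). Rsad2, the antiviral protein viperin, and its neighbour Cmpk2, a nucleotide kinase, start 12763 bp apart by RefSeq and had -0.03 (SE 0.18) and -0.03 (SE 0.08). Sp100, a nuclear body protein, had 0.22 (SE 0.21) and Ifi44 -0.53 (SE 0.39), the lowest value of the 31. Ifi35, Rtp4, Xaf1 and Samd9l lay between -0.07 and 0.07.

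**Figure D3:**
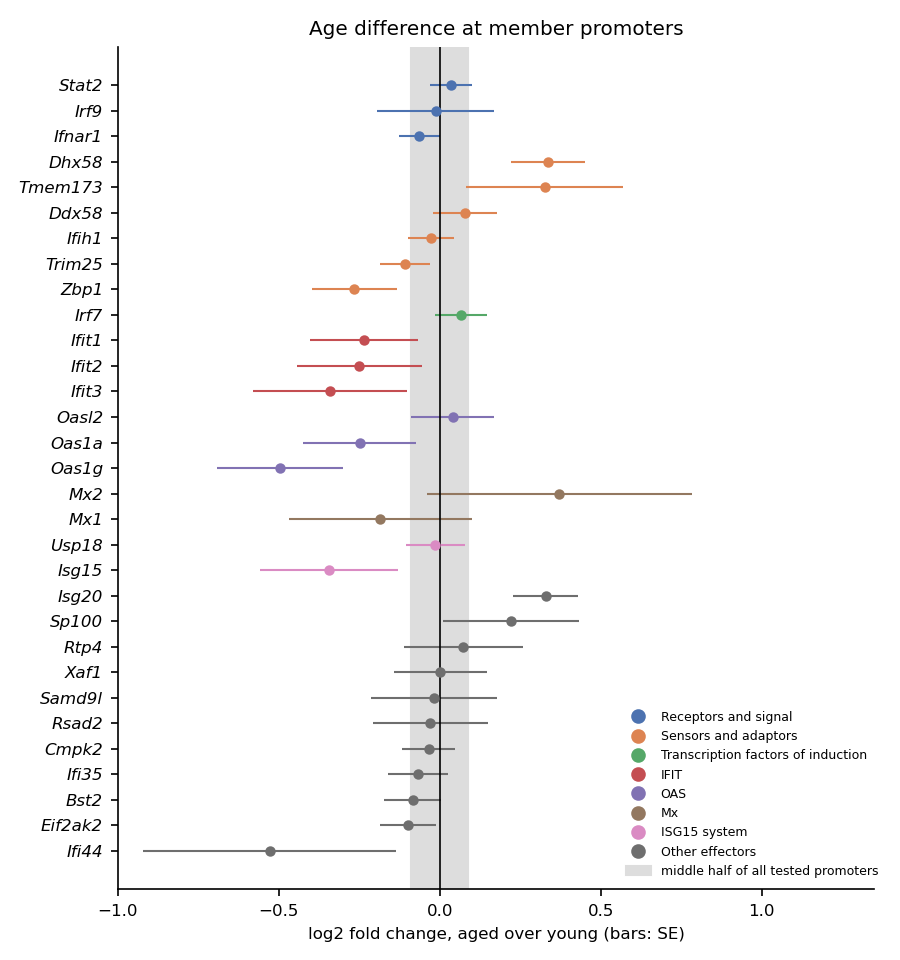
Log2 fold change, aged over young, of counts summed over each gene's promoter peaks (horizontal axis; bars are SE, n = 3 per age), grouped and coloured by role. The grey band is the interquartile range of all 13880 tested promoters, from -0.09 to 0.09. By its definition as many of all promoters lie outside it as inside. To its left lie 11 genes, with Ifi44 and Oas1g farthest out, and to its right 5, namely Mx2, Dhx58, Isg20, Tmem173 and Sp100.

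Counted per promoter, 0 of the 31 were called by edgeR beside 1.74% of all 13880 promoters (0.771% higher, 0.973% lower). An unadjusted p below 0.05 was reached by 3, namely Isg20, Dhx58 and Oas1g. The ages did not overlap at 3 of the 31 (9.68%), namely Dhx58, Ifit1 and Ifit2, beside 14% of all promoters. DESeq2 also called 0. The median log2 fold change was -0.03, with 11 of 31 above 0 (35.5%), beside -0.002 and 49.4% for all promoters. Genes with the response element had a median of -0.10 (9 of 11 below 0). Genes with a RefSeq window but no match had -0.02 (8 of 13 below 0). The contrast was not tested, and the 11 include the similar Oas1a and Oas1g. The values come from peaks near the annotated TSS. For Rsad2, Irf9 and Samd9l these are not the peaks over the RefSeq start, where the motif was searched. Summed over all peaks within 50000 bp, 0 of 38 genes were called by edgeR beside 1.84% of all 27234 genes (1.06% higher, 0.775% lower), and DESeq2 called 0 too. Isg20 and Dhx58 had an unadjusted p below 0.05, at 0.26 (SE 0.10) and 0.30 (SE 0.12).

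**Figure D4:**
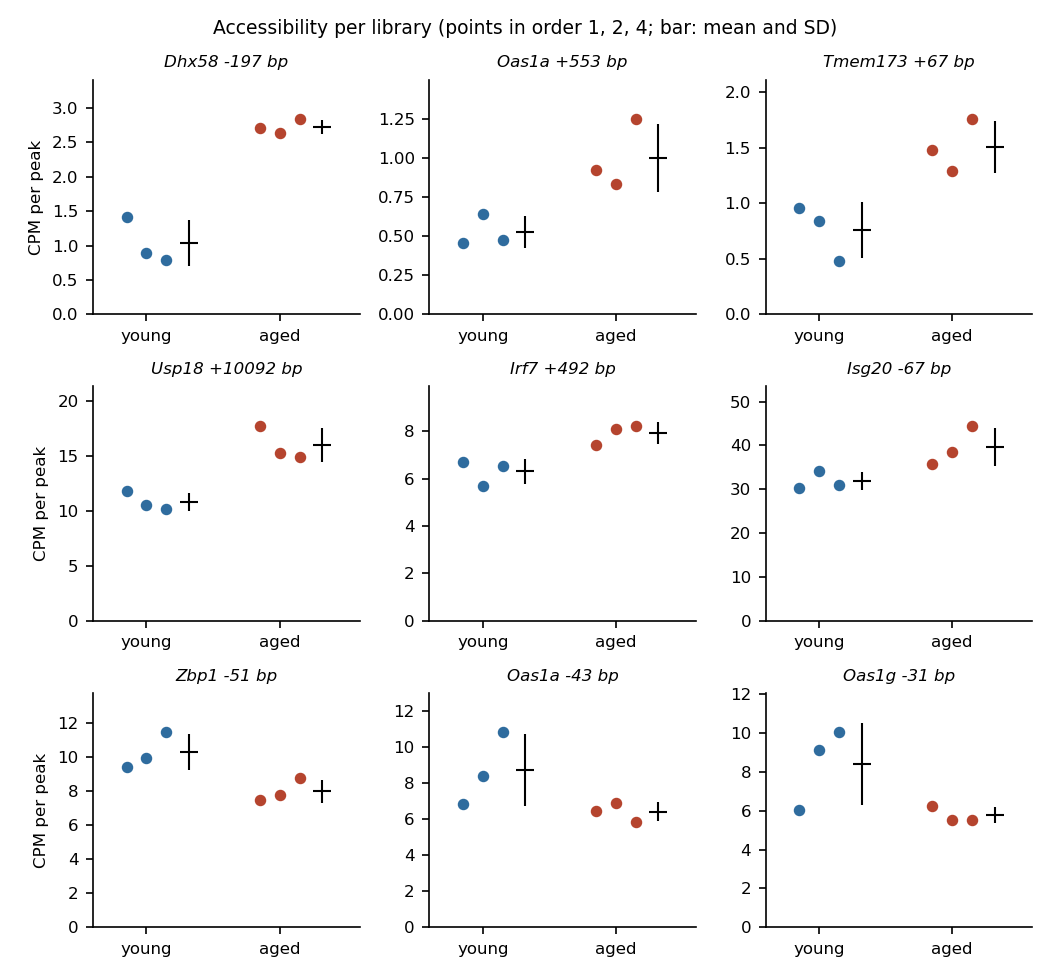
Accessibility in each library (CPM per peak, vertical axes from 0) at the 9 peaks that were called or are promoter peaks with an unadjusted p below 0.05, with young libraries in blue, aged in red, points in the order 1, 2, 4 and the mean with SD beside them. The upper 6 have higher aged means, of which Dhx58 (2.73 against 1.04) and Usp18 (16.0 against 10.8) were called; in the lowest row the aged means are lower, and young 1 is the lowest young library at each of the 3 peaks.

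Of the 118 distal peaks tested, 54 were above and 64 below 0, with a median of -0.02 beside 0.001 for all distal peaks, and the ages did not overlap in 15 (12.7%, beside 14.3% of all). Besides those of Usp18, the higher ones with the smallest p included a peak in an intron of Pmepa1, 13516 bp upstream of Zbp1. It had 45.2, 46.4 and 56.0 CPM in aged 1, 2 and 4 against 43.2, 44.1 and 40.8 in young 1, 2 and 4. The aged values were all higher by a small margin (0.20, SE 0.11). Another, in the first intron of Oasl1, had 18.4, 14.6 and 19.3 CPM in aged against 15.9, 14.2 and 14.2 in young libraries, with overlap (0.23, SE 0.13). The exonic Mavs peak at 3621 bp had 4.62, 4.89 and 5.34 CPM in aged against 3.52, 4.7 and 3.34 in young libraries, also with overlap (0.32, SE 0.19).

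On the lower side, a peak at the end of Pmepa1, 5318 bp upstream of Zbp1, had 1.05, 0.669 and 1.14 CPM in aged 1, 2 and 4 against 0.870, 1.78 and 2.87 in young 1, 2 and 4. Young 1 lay within the aged range (-0.79, SE 0.36). The intergenic peak 5443 bp upstream of Rsad2 had 1.91, 1.67 and 1.53 CPM in aged against 2.11, 2.72 and 2.55 in young libraries, and the aged values were all lower (-0.52, SE 0.25). The same order held in an intron of Trim25, with 6.53, 5.10 and 5.91 CPM in aged against 7.05, 6.64 and 9.08 in young libraries (-0.34, SE 0.17). An intron of Ifi35 had 18.2, 15.9 and 17.8 CPM in aged against 20.4, 18.5 and 22.5 in young libraries (-0.23, SE 0.12). The weak peak 19221 bp past Cmpk2 had 0.678, 0.543 and 0.341 CPM in aged against 0.915, 0.693 and 1.27 in young libraries (-0.77, SE 0.42). None of these was called.

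**Figure D5:**
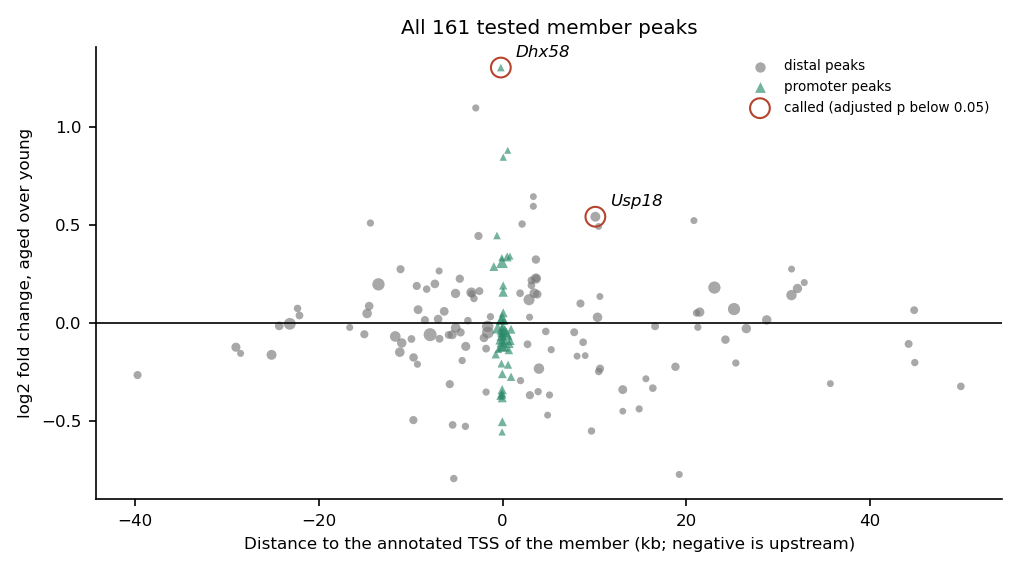
Log2 fold change, aged over young (vertical axis), of all 161 tested peaks against distance to the annotated TSS of the gene (horizontal axis, kb; triangles promoter, circles distal, larger symbols for more accessible peaks). Only the circled Dhx58 (1.30) and Usp18 (0.54) peaks were called, and 69 of the 161 lie above 0.

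Other genes of the pathway, taken from lists, gave no called promoter either, at the same 1.74% background. Promoter peaks were tested for 3 of 20 interferon ligand genes, 6 of 7 further receptor and kinase genes, 10 of 20 sensing partners, 12 of 14 genes that restrain nucleic acid sensing and 27 of 46 further interferon-induced genes. Their median log2 fold changes were -0.11, 0.05, -0.01, 0.05 and 0.04. The smallest p among ligands were at Ifnl3 (-0.16, SE 0.19) and Ifnl2 (-0.09, SE 0.16), and among receptor partners at Il10rb (0.14, SE 0.10) and Socs3 (0.07, SE 0.07). Among sensing partners they were at Ddx41 (-0.20, SE 0.07) and Traf6 (1.04, SE 0.44). Among restraining genes they were at Nlrx1, an inhibitor of Mavs (0.28, SE 0.09), and Rnf125 (0.70, SE 0.38). Among interferon-induced genes they were at Ly6e (0.36, SE 0.11) and Nmi (-0.32, SE 0.11).

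Single weak peaks of these lists were called away from promoters. Within 50000 bp, 1 of 59 peaks of receptor partners and 1 of 180 of interferon-induced genes were called, and 0 of 27 of ligands and 0 of 80 of sensing partners, beside 1.6% of all peaks. An exon 2 peak of Ly6e had 2.1, 2.21 and 2.39 CPM in aged 1, 2 and 4 against 0.275, 0.347 and 0.318 in young 1, 2 and 4. Every aged value was far above the young ones (2.82, SE 0.36, adjusted p = 4.7e-06, edgeR). A Jak1 intron peak was also higher (2.57, SE 0.57). Among 81 tested peaks of restraining genes, intron peaks assigned to Rnf125 (-1.45, SE 0.36) and Dnase1l3 (-1.19, SE 0.30) were lower. The full calls of that list are not reported here, so these peaks give no direction for the list. The endothelial marker Pecam1 had a peak of this kind in exon 5, with 1.42, 1.3 and 1.19 CPM in aged against 0.137, 0.396 and 0.478 in young libraries (2.11, SE 0.44, adjusted p = 0.00445, edgeR); its part in the results was not tested.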

How the data were processed

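The authors deposited raw read counts per consensus peak and an annotation of each peak with its nearest gene and the distance to that gene's TSS. Per the labels, the 24 sample records are 6 libraries sequenced on 4 lanes each, with 1 column of counts per library. The submitters' processing notes name Trim Galore 0.6.4, BWA 0.7.17-r1188, Picard 2.23.1, MACS2 2.2.7.1, featureCounts 2.0.1 and the build GRCm38; peak calling settings and any shift for the Tn5 offset are not given there. A peak that the annotation gives to a neighbour is not counted for a gene, and where the annotated TSS lies far from the RefSeq start a promoter peak counts as distal.

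Counts were analysed with edgeR 4.0.16 in R 4.3.3: filterByExpr, TMM scaling (trimmed mean of M-values), and the robust quasi-likelihood test on age alone, with all peaks in the fit. P-values were adjusted over all tested features (Benjamini-Hochberg), and a feature was called below 0.05. Standard errors come from the test statistic. CPM values were computed from the deposited counts with TMM-scaled totals. The summed CPM of the marker lists used unscaled total counts over all peaks instead. Counts were also summed per gene over promoter peaks (1000 bp) and over all peaks within 50000 bp. CPM of promoter sums are relative to promoter counts only and are not on the scale of single peaks. The fit was also run on simulated counts of independent libraries with differences larger than most reported here. Smaller differences and a shared replicate number were not simulated, so that run does not check the test for them.

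The 38 genes, the pathway and marker lists and the tests were chosen with earlier results of these data known. Values in every library are given for called peaks, for the most accessible promoter and the one with the smallest p of each role, for promoters and promoter peaks with an unadjusted p below 0.05, for 6 distal peaks each way (those of smallest p), and for Isg15, Irf7, Ifnar1, Tmem173 and Mavs. A called peak of the pathway lists is not reported here.

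The replicate numbers 1, 2 and 4 occur in both ages. After subtraction of the mean of each age, libraries with the same number correlated at 0.265, 0.199 and 0.148, all above the criterion of 0.1, and libraries with different numbers at -0.205 to 0.0285. What a number marks is not labelled. Values with the number as a block are given beside a result where they change the call.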

Additional observations from a re-analysis of the deposited data

How the results depend on the processing

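With the replicate block, calls rose among all 129588 tested peaks, to 3998 from 2077. In the set, 3 of 43 promoter peaks were called (Dhx58, Isg20 and Oas1g) instead of 1. Of 31 summed promoters, 1 was called (Isg20) instead of 0. Shares of all promoter peaks and all summed promoters called were computed for the main fit only, so counts under alternatives have no matching background. The block changed no other call among the 33 single genes and peaks recomputed. DESeq2 called 0 distal peaks of the set (Usp18 was lost) and 1291 of all peaks, and thinning to the shallowest library left 777. After thinning, the 1 promoter peak called was that of Oas1g, not Dhx58, and Irf7 turned to -0.0093. Thinning drew reads at random and was not repeated, so how far these changes depend on the draw was not tested. Within 500 bp, 1 summed promoter was called (Dhx58). With peaks near RefSeq starts, an alternative chosen after seeing the data, 0 promoter peaks were called, since no RefSeq window was matched for Dhx58. Leaving out 1 library at a time gave 0 to 2 called promoter peaks (0 without young 2, 2 without young 1), 0 to 1 distal peaks (0 without aged 1 and without young 2), 0 to 1 summed promoters and 1216 to 2084 of all peaks (1216 without young 2). Over the same fits, 3 of the 13 summed promoters recomputed changed sign: Ifih1 ranged from -0.075 to 0.025 (above 0 without aged 1), Usp18 from -0.052 to 0.043 (above 0 without aged 1 and without young 1) and Mx1 from -0.39 to 0.015 (above 0 without young 4). The cause of these changes was not tested. No gene window was called under any setting run. Of 487 values of single genes and peaks under alternatives, 470 kept direction and side of the threshold. Most of these values belong to results not called in the main fit, so the count says little about the calls. The called peaks of Dhx58 and Usp18 were called again in 13 of 15 and 12 of 15 alternatives. Counts of the weakest peaks, such as 5 reads at Dhx58 in young 4, limit what can be seen.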

Other observations

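Of the 182 peaks, 31 lay inside or at the edge of another gene by the annotation (23 in introns, 3 in exons, 2 at promoters and 3 at transcript ends), so that assignment by nearest start does not tie them to the gene named. Peaks were unevenly spread over the genes: Mx2 had 16, Ifit1, Zbp1 and Samd9l had 11 each, and Eif2ak2, Bst2, Xaf1, Irf3, Oas2 and Oas3 had 1 each. Under the annotated starts, 7 genes appeared to lack an open promoter. By RefSeq starts, 28 of the 29 genes with a RefSeq window had a tested peak over a start, the exception being Ifit3. Oas2 and Ifi27, which are among the 7, had no matched window and could not be looked up in this way. The peak over the RefSeq start of Rsad2, 1627 bp upstream of its annotated TSS, averaged 30.6 CPM in aged and 31 in young libraries, against 6.39 and 6.71 for the peak that the rule counts as its promoter. For Irf9 the corresponding values were 35.5 and 36.7 CPM at the RefSeq start, 1607 bp away, against 6.27 and 6.5. Near the RefSeq starts of these 29 genes (1000 bp or less), 39 peaks were tested. Of these, 0 were called by edgeR and 4 had an unadjusted p below 0.05, beside 1281 of 18834 for all promoter peaks. The ages did not overlap in 4 of the 39 (10.3%), beside 11.2% of all promoter peaks. Dhx58 is not among the 29, and its called peak lies 569 bp from the RefSeq start of that gene.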
